A study of Rattus norvegicus with 12 samples.

Results

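Aldosterone (ALD) and corticosterone (COR), the natural mineralocorticoid and the main natural glucocorticoid of the rat adrenal gland, were compared directly in cultured neonatal rat cardiomyocytes. The comparison rested on 4 of the 12 arrays of the series, the ALD and the COR array of the first experiment and those of the second. Their difference was taken as ALD minus COR within each experiment and then averaged over the 2 experiments. Of 18625 probe sets tested, 55 differed between the steroids, and all 55 did so in the same direction in both experiments. In 49 of them the signal was lower with ALD, and in 6 it was higher.

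Both steroids act through 2 related nuclear receptors. The glucocorticoid receptor (GR, gene Nr3c1) binds corticosterone, and binds aldosterone more weakly, whereas the mineralocorticoid receptor (MR, gene Nr3c2) binds both hormones tightly. A ligand-bound receptor leaves its chaperone complex, enters the nucleus and binds DNA at hormone response elements, from which it raises or lowers transcription. In epithelia such as the distal nephron the enzyme encoded by Hsd11b2 inactivates corticosterone and so keeps MR accessible to aldosterone, while the enzyme encoded by Hsd11b1 regenerates active glucocorticoid. Cardiomyocytes carry both receptors. The molecules share the pregnane steroid skeleton and differ in that aldosterone carries an aldehyde where corticosterone has an angular methyl group.

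The cells came from the ventricles of Wistar rats aged 1 day and were separated from fibroblasts by how readily they attach to the dish. They were held for 24 h in OPTI-MEM, a reduced-serum medium, and then given ethanol vehicle, ALD, COR or the synthetic glucocorticoid cortivazol (CVZ) for 3 h. Each of these 4 groups had 1 array in each experiment (n = 2), and none received the receptor antagonist RU486. The other 4 arrays carried 10 µM RU486. They entered the pseudocount added before log2 values were taken, the filter, the choice of probe set for each gene and the mean-variance trend. As 1 array for each group, they added no residual degrees of freedom. The ligand doses are not given in the labels used here, so the steroids are compared as they were applied. The labels do not say that the experiments used separate cell preparations, so the p-values measure the spread between these arrays, which may be technical.

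Signals are MAS5 values divided by the median of their array, so that a signal of 1 is the median probe set. Before division the medians were 24.4 and 33.7 on the ALD arrays and 25.5 and 28.7 on the COR arrays, and arrays of 1 group correlated at 0.946 to 0.950 between experiments. Cardiomyocyte markers had a summed signal of 2641 and 2535 with ALD and 2601 and 2538 with COR over 11 of 12 markers tested. Fibroblast markers summed to 369 and 200 with ALD and 420 and 201 with COR (10 of 10 tested), so fibroblast marker signal was higher in the first experiment in both groups. Macrophage markers summed to 21.0 and 16.8 with ALD and 17.2 and 14.2 with COR (6 of 9 tested), higher with ALD in both experiments. No marker of these or of the smooth muscle, endothelial, epicardial, Schwann or erythroid lists was called between ALD and COR, and the part of other cell types in the results was not tested. In such bulk samples fewer cells of a type and less RNA per cell cannot be told apart.

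The steroids differed in a small set of genes, and nearly all of these were raised by corticosterone and stood lower with aldosterone. Calls required an adjusted p (limma, Benjamini-Hochberg) under 0.05, which 0.295% of the tested probe sets reached (0.263% lower with ALD, 0.0322% higher). By gene, 38 of 10082 named genes were lower with ALD (0.377%) and 3 were higher (0.0298%), 0.407% in all. The called differences ranged from 0.45 to 1.99 in size on the log2 scale, with a median of 0.91, and 19 of the lower and 1 of the higher probe sets differed at least 2-fold. Both ALD signals lay below both COR signals in 46 of the 49 lower probe sets (9.19% of all tested). Both lay above in 2 of the 6 higher ones (10.6% of all tested). As these 4 arrays also selected the probe sets, the overlap counts describe them and are no support for the calls. The same holds for each called gene described below as without overlap between ALD and COR. At an unadjusted p below 0.05 there were 1155 probe sets (6.2%). The calls depend on how the error was estimated, as the fit without the experiment as a block and the fit without a mean-variance trend called 0 probe sets each (254 and 1082 at an unadjusted p below 0.05). Leaving out the first COR array left 2 calls, the first ALD array 12, the second COR array 31 and the second ALD array 34. Egr1 and Tcap were called in all 4 of these fits, and Fkbp5, Irf9 and Klf15 in all but the fit without the first COR array.

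**Figure D1:**
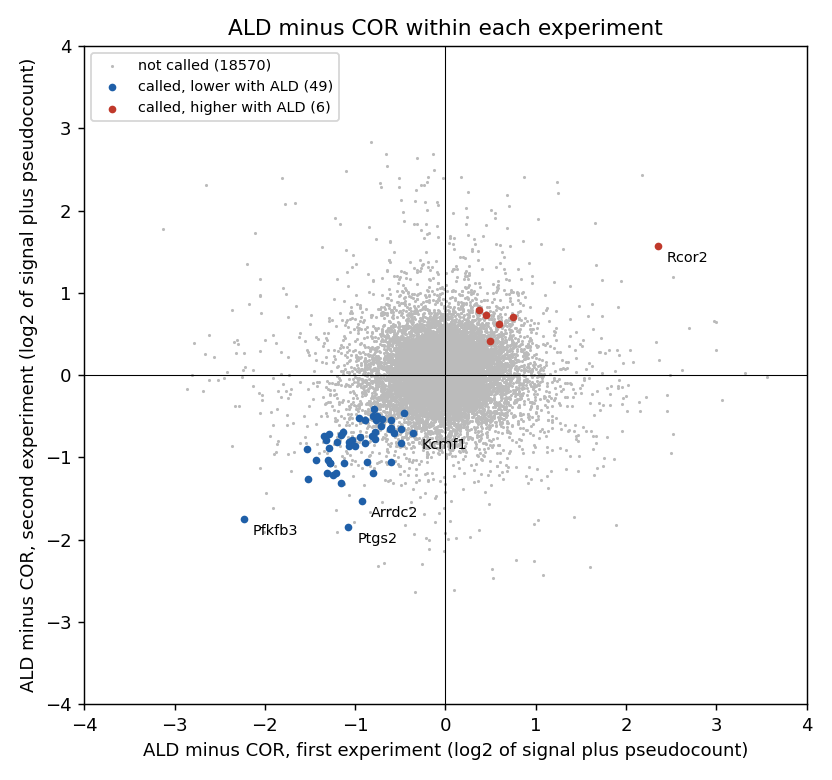
Each point is 1 of the 18625 tested probe sets, with the ALD minus COR difference (log2 of signal plus pseudocount) of the first experiment on the x axis and of the second on the y axis. The 49 probe sets called lower with ALD (blue) lie in the lower left quadrant, led by the weakly detected Pfkfb3, and the 6 called higher (red) in the upper right, led by Rcor2, around a broad cloud of probe sets not called (grey).

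Over all probe sets the experiments agreed little in direction. The sign of the difference was the same in both experiments for 9577 probe sets (51.4%), lower with ALD in 4491 (24.1%) and higher in 5086 (27.3%). A difference of at least 2-fold occurred in 586 probe sets of the first experiment (3.15%) and 409 of the second (2.2%). It was 2-fold lower in both in 28 (0.15%), 2-fold higher in both in 14 (0.0752%) and 2-fold in opposite directions in 36 (0.193%). Of the 28, 12 were called, and of the 14 only Rcor2. All 14 higher ones, and 11 of the 28 lower ones, had an ALD or COR array below a signal of 0.560, the level that marks the filter on weak probe sets. The 2-fold counts therefore rest in large part on weak signals.

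Corticosterone raised more genes than aldosterone when each was set against vehicle, and the same vehicle arrays served both, so the counts are given side by side. COR was called risen in 454 probe sets (2.44%) and fallen in 178 (0.956%). ALD was called risen in 162 (0.87%) and fallen in 15 (0.0805%). Of the 38 genes lower with ALD than with COR, 37 were called risen with COR and 20 were called risen with ALD. These counts describe the 38 and support nothing further, since the genes were selected for COR above ALD on the same ALD and COR arrays. The gene not called risen with COR was Kcmf1, which encodes a ubiquitin ligase and was chosen here after its values were seen. Its signals were 19.3 and 23.2 with vehicle, 18.6 and 18 with ALD and 23.9 and 29.4 with COR. In 46 of the 49 lower probe sets the fitted ALD level lay between vehicle and COR, and COR was above vehicle in all 49. The same selection favours that order, and its share over all probe sets was not counted, so this is a description.

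The receptor and its chaperones come first. Fkbp5, a co-chaperone that lowers the affinity of GR for its ligand and is itself a GR target, had signals of 1.52 and 2.17 with vehicle, 10.9 and 13.4 with ALD, 26.6 and 28.2 with COR and 43.5 and 43.8 with CVZ. The groups did not overlap, and the levels rose in that order in each experiment. ALD minus COR was -1.17 ± 0.14 (log2 ± SE, adjusted p = 0.0017), so that COR stood 2.26-fold above ALD. A second Fkbp5 probe set was called with the same difference of -1.17. Fkbp5 was the only call among 14 tested members of a list of receptors, prereceptor enzymes and chaperones, against 0.407% of all named genes. The median difference of the list was 0.05 against 0.01 over all named genes.

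The receptor genes themselves were not called. Nr3c1 had signals of 9.07 and 8.92 with ALD and 8.29 and 7.14 with COR, a difference of 0.22 with a 95% interval of -0.04 to 0.49. Nr3c2 was at 2.89 and 2.64 with ALD and 2.31 and 2.48 with COR, a difference of 0.20 (-0.31 to 0.71). For Hsd11b1 the difference was -0.17 (-0.50 to 0.15). Each of these intervals lies inside 2-fold, and Hsd11b2 was not among the tested probe sets. The chaperone gene Hsp90ab1, at signals of 100.5 and 98.1 with ALD and 103 and 90.9 with COR, gave 0.04 (-0.13 to 0.20).

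Genes known as GR targets mostly had lower fitted levels with ALD. Of 29 listed targets 25 were tested, 6 were called lower and none was called higher, against 0.377% and 0.0298% of all named genes. Of the 25, 23 (92%) were lower with ALD in both experiments, against 23.8% of all named genes. Their median difference was -0.59, or -0.71 in the first experiment and -0.51 in the second, against 0.01 over all named genes. Against vehicle, 20 of the 25 were called risen with COR and 9 with ALD, against 276 and 92 of all 10082 named genes. The 6 called were Fkbp5, Klf9, Klf15, Glul, Pdk4 and Rhob. This list and the other gene lists were chosen with earlier results of these data known, so their counts and medians are descriptions.

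Klf15, a zinc finger factor that steers amino acid and lipid metabolism in muscle, had signals of 3.53 and 5.08 with vehicle, 12.2 and 17.5 with ALD, 23.5 and 29.7 with COR and 34.7 and 45.4 with CVZ. ALD and COR did not overlap, and ALD itself had raised the gene well above vehicle. The difference was -0.85 ± 0.11 (adjusted p = 0.0022). A second Klf15 probe set gave -0.73 and was not called. Klf9, a related factor, was at 28.0 and 23.6 with ALD and 47.9 and 34.4 with COR, again without overlap, and differed by -0.66 ± 0.10 (adjusted p = 0.011). A weaker second probe set of Klf9 gave -1.96 and was not called. Rhob, a small GTPase of endosomes, was at 15.9 and 14.0 with ALD and 22.5 and 24.8 with COR (-0.66, adjusted p = 0.028).

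Several classical GR targets lay on the same side without being called. Per1, a clock repressor, was at 1.62 and 3.83 with ALD and 2.69 and 5.50 with COR, so that the groups overlapped across experiments, and differed by -0.61 (-1.19 to -0.03, adjusted p = 0.77). Against vehicle it was called risen with both steroids, by 2.38 with ALD and 2.99 with COR. Sgk1, a kinase that sustains sodium channel activity, was at 9.64 and 3.49 with ALD and 16.4 and 5.17 with COR, a difference of -0.66 (-1.03 to -0.29, adjusted p = 0.21). Tsc22d3, which encodes the anti-inflammatory protein GILZ, differed least, by -0.20 (-0.41 to 0.01). Its signals were 18.6 and 18.3 with ALD and 23.1 and 19.4 with COR. The listed targets that did not lie lower in both experiments were Mt1 and Angptl4, both with mean signals near 1 or less in these groups.

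**Figure D2:**
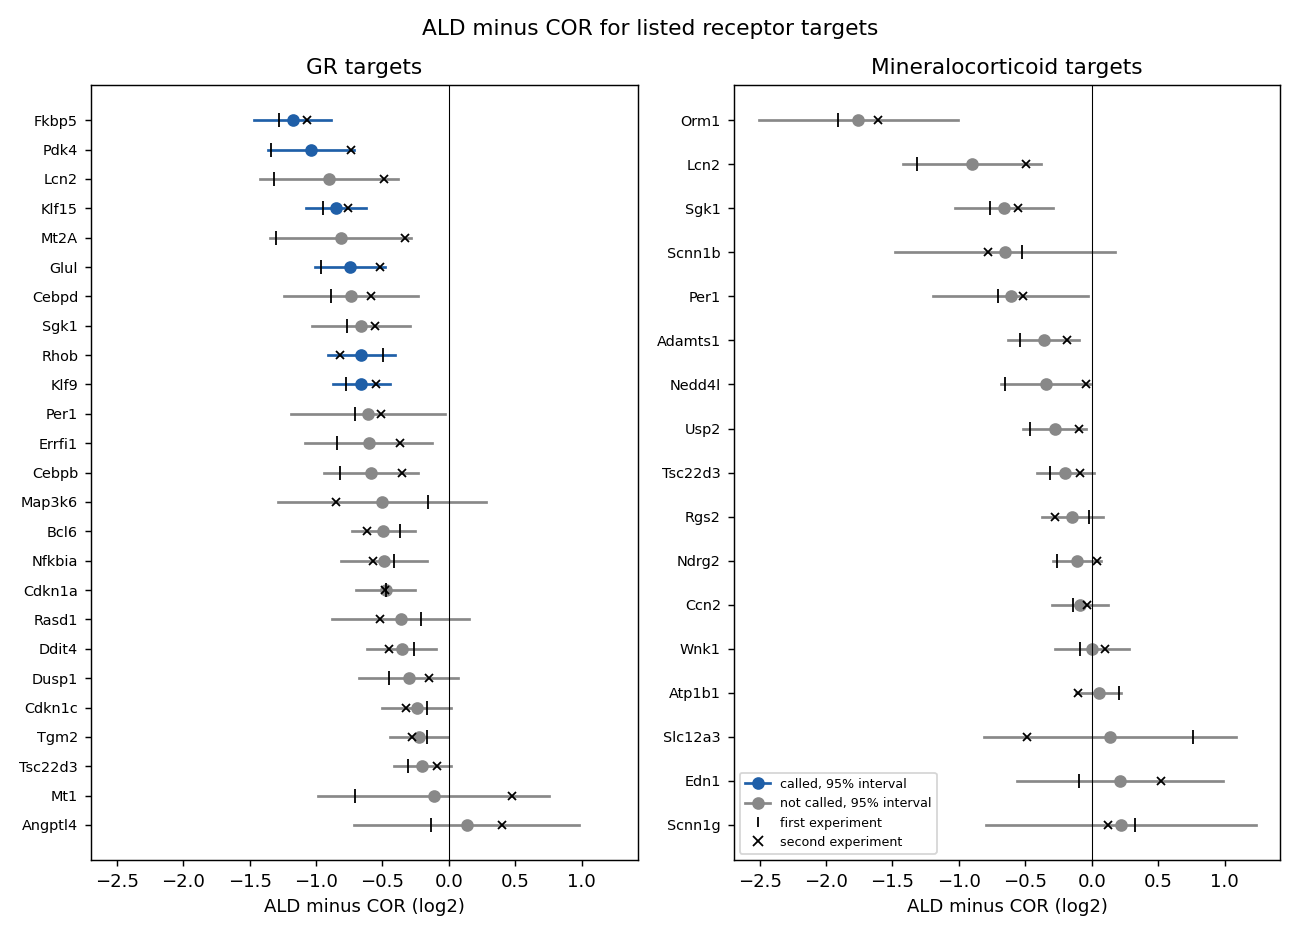
ALD minus COR (log2) on the x axis for each tested gene of the GR target list (left) and the mineralocorticoid target list (right). Dots and lines give the fitted difference and its 95% interval, blue where called, and the bar and cross give the first and the second experiment. On the left 23 of 25 genes lie below 0 in both experiments, and on the right 11 of 17, where no gene was called. Of all named genes, 23.8% were lower in both and 0.407% were called.

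No gene known as a mineralocorticoid target was called higher with aldosterone than with corticosterone. Of 24 listed, 17 were tested and none was called in either direction. As 0.407% of all named genes were called, and 0.0298% called higher, 0 of 17 is no result about the list. The median of the 17 was -0.20, and 11 of them (64.7%) were lower with ALD in both experiments, against 23.8% of all named genes. Sgk1, Per1, Tsc22d3 and Lcn2 stand in both target lists, so the lists are not separate evidence. Against vehicle, ALD was called risen in 1 of the 17, which was Per1, and COR in 6, against 92 and 276 of all 10082 named genes. The largest difference belonged to Orm1, an acute phase plasma protein, with mean signals of 0.717 with ALD and 2.60 with COR. It gave -1.76 (-2.51 to -1.01) and stood just outside the threshold at an adjusted p of 0.0504. The epithelial transport genes were weakly detected or gave differences near 0. Scnn1b and Scnn1g, subunits of the epithelial sodium channel, had mean signals of 0.648 and 0.627 with ALD. Atp1b1, a subunit of the sodium pump, was at 149 and 114 with ALD and 129 and 122 with COR, a difference of 0.05 (-0.12 to 0.22).

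Rgs2 went the other way against vehicle. This regulator of G protein signaling, which shortens signaling through Gq, was at 30.2 and 14.8 with vehicle, 17.8 and 8.28 with ALD, 18 and 10.0 with COR and 40.1 and 19.3 with CVZ. Both natural steroids lowered it in each experiment, ALD by -0.80 (adjusted p = 0.00072) and COR by -0.65 (adjusted p = 0.0017), while CVZ raised it by 0.40 (adjusted p = 0.032). ALD minus COR was -0.15 (-0.38 to 0.08) and was not called. Rgs2 was the only gene of 9 called fallen with ALD that lay below COR in both experiments, against 23.8% of all named genes.

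Of the genes of fuel choice, Pfkfb3 and Pdk4 were lower with ALD. Pfkfb3, whose product makes the activator of phosphofructokinase and so drives glycolysis, had signals of 0.678 and 0.676 with vehicle, 0.533 and 0.653 with ALD, 2.76 and 2.36 with COR and 5.76 and 6.45 with CVZ. Both ALD signals were below both vehicle signals, and with COR it was above every vehicle and ALD array. The difference was -1.99 ± 0.29 (adjusted p = 0.0076), a 3.98-fold higher level with COR on the log2 scale with pseudocount. The ALD signals were weak, the first below and the second near the filter level of 0.560, so the size of this fold is uncertain. A second Pfkfb3 probe set was weaker and gave -0.81, which was not called. Pdk4, the kinase that switches off pyruvate dehydrogenase, was at 6.95 and 4.15 with vehicle, 7.63 and 7.24 with ALD and 19.5 and 12.1 with COR. ALD and COR did not overlap, and the difference of -1.04 ± 0.15 (adjusted p = 0.0076) was shared by a second called probe set at -1.01. These 2 genes were the calls among 24 tested genes of glucose and fatty acid use, against 0.407% of all named genes, and the list median was 0.02. Abundant genes of that list gave differences near 0, with 0.14 (-0.05 to 0.33) for the fatty acid importer Cpt1b and 0.03 (-0.14 to 0.20) for Hadha. Ldha, lactate dehydrogenase, was at 183 and 135 with ALD and 187 and 133 with COR.

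Glul, glutamine synthetase, was the call among 15 tested genes of amino acid use (0.407% of all named genes were called), whose median was -0.06. It was at 14.1 and 11.4 with ALD and 27.5 and 16.3 with COR, without overlap, and differed by -0.74 ± 0.12 (adjusted p = 0.02). A second Glul probe set was called at -0.91. Got1, the cytosolic aspartate aminotransferase, was at 53.2 and 53.8 with ALD and 65.9 and 63.9 with COR, a difference of -0.28 (-0.49 to -0.07) that was not called.

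Insulin and FoxO signaling gave 4 calls among 17 tested genes, against 0.407% of all named genes. The median was -0.09, and 8 of the 17 (47.1%) were lower with ALD in both experiments, against 23.8% of all named genes. As the list was chosen with earlier results of these data known, these counts are descriptions. Sesn1, a sestrin that restrains the growth kinase mTORC1, had signals of 6.62 and 5.74 with vehicle, 23.9 and 25.3 with ALD and 39.2 and 38.8 with COR. The arrays of each group lay close together, and ALD alone had raised the gene by 1.99. ALD minus COR was -0.66 ± 0.10 (adjusted p = 0.011). A second Sesn1 probe set gave -0.43, with -0.75 in the first and -0.12 in the second experiment, and was not called. Foxo3, a transcription factor of atrophy and autophagy, was at 11.8 and 13.3 with ALD and 18.1 and 20.8 with COR (-0.63, adjusted p = 0.028). Pik3r1, the regulatory subunit of phosphoinositide 3-kinase, was at 4.18 and 3.35 with ALD and 9.42 and 5.60 with COR (-0.94, adjusted p = 0.024). In neither gene did the groups overlap, which describes genes that the same arrays selected. Both ALD signals lay below both COR signals in 9.19% of all tested probe sets. Klf15 was the fourth. The muscle ubiquitin ligase gene Trim63, at mean signals of 21.8 with ALD and 22.0 with COR, gave 0.00 (-0.24 to 0.25).

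Among transcription factors, Egr1 had the smallest adjusted p of the comparison. This immediate early zinc finger factor was at 12.4 and 4.92 with vehicle, 24.3 and 10.5 with ALD, 52.9 and 22.0 with COR and 95.2 and 35.6 with CVZ. Its level was higher in the first experiment throughout, so the ALD and COR arrays overlap across experiments, while within each experiment COR was above ALD. The differences were -1.12 and -1.06, with a mean of -1.09 ± 0.10 (adjusted p = 0.00039). None of the other 14 tested immediate early genes was called, where 0.407% of all named genes were called. At that share, no call among them is no result about the list. The median of all 15 was -0.23, and 9 of them (60%) were lower with ALD in both experiments, against 23.8% of all named genes. Jund, at 19.1 and 9.82 with ALD and 17.6 and 9.39 with COR, gave 0.09 (-0.14 to 0.32). Irf9, the DNA-binding subunit of the interferon-activated complex ISGF3, was at 7.09 and 7.36 with ALD and 17.5 and 15.1 with COR, without overlap. It differed by -1.16 ± 0.14 (adjusted p = 0.0022), and a second probe set by -1.25. Zfp189, a zinc finger protein, gave -1.08 (adjusted p = 0.02).

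**Figure D3:**
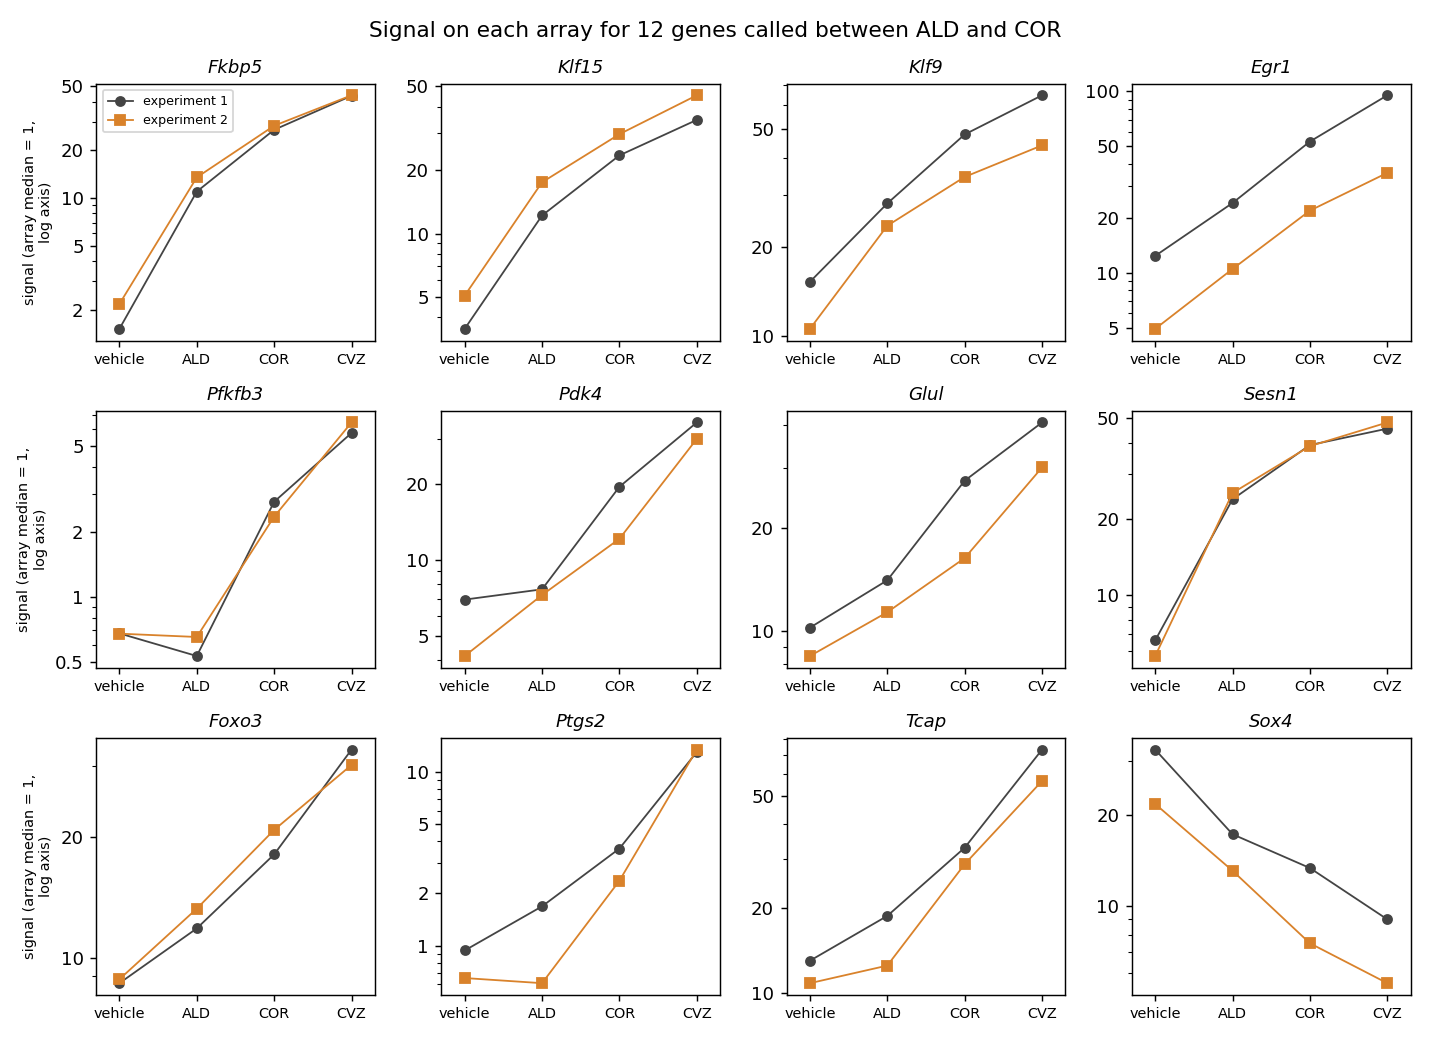
Signal of 12 called genes (y axis, logarithmic, array median = 1) on the vehicle, ALD, COR and CVZ array of the first (circles) and the second experiment (squares). In 11 panels COR lies above ALD in both experiments and CVZ above COR, and in the Sox4 panel the order is inverted.

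Ptgs2, the inducible cyclooxygenase, differed by -1.46 ± 0.29 and stood just inside the threshold (adjusted p = 0.047). Its signals were 0.938 and 0.651 with vehicle, 1.68 and 0.608 with ALD, 3.62 and 2.37 with COR and 13.0 and 13.5 with CVZ. The second ALD array was below both vehicle arrays, and ALD and COR did not overlap. Under quantile normalization and under trimmed-mean scaling the gene was no longer called. It was the call among 9 tested genes of prostanoid synthesis and reception, where 0.407% of all named genes were called. The list median was -0.41, and 5 of the 9 (55.6%) were lower with ALD in both experiments, against 23.8% of all named genes. The prostaglandin F receptor gene Ptgfr lay the other way, at 7.98 and 4.25 with ALD and 4.97 and 2.65 with COR, and was not called (0.67, 0.37 to 0.98, adjusted p = 0.08).

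Tcap, F3 and Bcl2l1 were also lower with ALD. Tcap, the Z-disc protein telethonin that caps titin, was at 13.0 and 10.8 with vehicle, 18.8 and 12.5 with ALD and 32.8 and 28.7 with COR. ALD and COR did not overlap, and the difference was -1.0 ± 0.11 (adjusted p = 0.0013). F3, tissue factor, the starter of blood coagulation, was at 5.54 and 6.64 with ALD and 11.7 and 12.1 with COR (-0.96, adjusted p = 0.0076). Bcl2l1, which encodes the anti-apoptotic protein Bcl-xL, was at 1.80 and 3.09 with ALD and 4.59 and 5.38 with COR (-1.05, adjusted p = 0.02). In both genes every COR array stood above every ALD array, as in 9.19% of all tested probe sets, and the same arrays selected them. A second Bcl2l1 probe set gave -0.82 and was not called.

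Crispld2, Cdc42ep2, Sult1a1, Arrdc2 and Lrch1 were each about 2.3-fold higher with COR. Crispld2, a secreted protein that binds lipopolysaccharide, was at 3.85 and 3.62 with ALD and 10.5 and 7.48 with COR (-1.23, adjusted p = 0.011). Cdc42ep2, an effector of the small GTPase Cdc42, was at 4.35 and 3.83 with ALD and 9.78 and 9.59 with COR (-1.23, adjusted p = 0.007). Both had been called risen with ALD as well. Neither showed overlap between ALD and COR, the arrays that also selected them. Sult1a1, a phenol sulfotransferase, was at 2.36 and 2.11 with ALD and 5.56 and 4.91 with COR (-1.20, adjusted p = 0.046), and was no longer called under quantile normalization. Arrdc2, an alpha-arrestin, and Lrch1, a leucine-rich repeat protein, each gave -1.23 (adjusted p = 0.023) and were not called between ALD and vehicle. A weaker second Lrch1 probe set gave -0.55 and was not called.

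The upstream sequences of genes lower with ALD were read for the GR and MR response element, which is shared by both receptors. The RefSeq promoter table (build GRCr8) held 31 of the 41 called genes, all of them lower with ALD. In the 250 bases before the start site, the site AGAACA, on either strand, was found in 3 of the 31 (9.68%) and in 17.5% of all 33469 promoters in the table. The full palindrome, AGAACA and its reverse complement TGTTCT with 3 bases between, was found in 0 of the 31 and in 0.012% of all promoters. The looser form GNACA and TGTNC with the same spacing was found in 0 of the 31 and in 0.373% of all. The looser form includes the full one. A match is a description of the letters, and the absence of a match says only that these letters are not in this window. The 3 windows with a match are printed because they are the only ones of the set with that site, and Fkbp5 because it had the lowest adjusted p of the GR target list. The window of Crispld2 is chr19:64978706-64978955 on the plus strand, of Irf9 chr15:33065586-33065835 on the plus strand, of Sult1a1 chr1:190706113-190706362 on the minus strand and of Fkbp5 chr20:6543556-6543805 on the minus strand. Each is written 5′ to 3′ along the gene, with the site in capitals on either strand. The site begins 76 bases before the start in Crispld2, 16 in Irf9 and 89 in Sult1a1.
Crispld2: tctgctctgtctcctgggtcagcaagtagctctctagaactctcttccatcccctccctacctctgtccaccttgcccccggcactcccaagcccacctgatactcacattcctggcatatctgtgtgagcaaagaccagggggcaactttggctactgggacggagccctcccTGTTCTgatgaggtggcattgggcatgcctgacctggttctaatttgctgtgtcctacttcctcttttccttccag
Irf9: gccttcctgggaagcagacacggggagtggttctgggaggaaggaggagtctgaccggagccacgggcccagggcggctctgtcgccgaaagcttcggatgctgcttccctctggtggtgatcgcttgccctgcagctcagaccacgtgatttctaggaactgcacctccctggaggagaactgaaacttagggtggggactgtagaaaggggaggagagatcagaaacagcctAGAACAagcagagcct
Sult1a1: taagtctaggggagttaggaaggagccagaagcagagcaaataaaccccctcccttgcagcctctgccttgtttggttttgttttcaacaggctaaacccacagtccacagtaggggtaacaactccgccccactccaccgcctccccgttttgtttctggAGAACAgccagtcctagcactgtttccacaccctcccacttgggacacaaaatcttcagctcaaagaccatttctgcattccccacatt
Fkbp5: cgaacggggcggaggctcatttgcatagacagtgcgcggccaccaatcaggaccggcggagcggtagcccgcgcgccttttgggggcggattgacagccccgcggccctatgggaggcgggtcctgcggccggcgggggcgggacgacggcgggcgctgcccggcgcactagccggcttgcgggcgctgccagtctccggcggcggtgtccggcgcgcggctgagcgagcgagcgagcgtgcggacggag

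Only 3 named genes were higher with ALD than with COR, and all 3 were genes that CVZ lowered. Sox4, a transcription factor of progenitor cells, was at 32.8 and 21.7 with vehicle, 17.2 and 13.0 with ALD, 13.3 and 7.50 with COR and 9.0 and 5.53 with CVZ. Every steroid had lowered it, and ALD had lowered it less than COR in each experiment, with overlap across experiments. The difference was 0.58 ± 0.11 (adjusted p = 0.047), close to the threshold, and 3 further Sox4 probe sets gave 0.41 to 0.67 without being called. Lbh, a transcription cofactor named for limb bud and heart, was at 41.6 and 64.0 with ALD and 29.5 and 48.1 with COR, also with overlap (0.45 ± 0.09, adjusted p = 0.045). Rcor2, a corepressor that partners the demethylase LSD1, had the largest difference at 1.96 ± 0.33 (adjusted p = 0.02). Its signals were weak, 1.46 and 3.20 with ALD against 0.231 and 1.03 with COR, and 1 COR array lay below the level of the filter. The other 3 probe sets higher with ALD carried no single gene name.

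Of the 14 probe sets at least 2-fold higher with ALD in both experiments, 13 were not called. The naming rule took 7 genes from them, which were Hcrt, Tmem151a, Zdhhc18, Agps, Clasrp, Rap1gap and Rffl, with differences of 1.17 to 1.73. Clasrp gave 1.17 (0.42 to 1.91), at 1.05 and 0.878 with ALD and 0.420 and 0.362 with COR. In Zdhhc18 the difference was 1.73 (0.58 to 2.88), at 1.11 and 0.591 with ALD and 0.427 and 0.0732 with COR. All 7 had COR signals below the filter level on both arrays.

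No gene was called both risen with ALD against vehicle and higher with ALD than with COR. Of the 92 named genes that rose with ALD, 5 lay above COR in both experiments, against 27.3% of all tested probe sets. None of the 5 was called between the steroids, where 0.0298% of all named genes were called higher. The 92 were chosen on the same ALD arrays, so these counts are descriptions. The 5 were Tp53rka at 0.63 (0.08 to 1.18), Exoc8 at 0.35 (-0.57 to 1.27), Map1lc3a at 0.22 (0.02 to 0.41), Pank1 at 0.17 (-0.14 to 0.48) and Zbtb20 at 0.07 (-0.13 to 0.27). Map1lc3a, a protein of the autophagosome membrane, was at 19.1 and 23.9 with vehicle, 26.6 and 31.6 with ALD and 23.8 and 26.1 with COR. The ALD arrays stood above both COR arrays, by a margin whose interval ended at 0.41.

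The difference between ALD and COR went with the response to CVZ, whose arrays lie outside the comparison but whose calls share its error estimate. That estimate includes how far ALD minus COR disagreed between the experiments, so CVZ-called probe sets tend to be ones where the experiments agreed. CVZ was called risen in 889 probe sets (4.77%) and fallen in 594 (3.19%) against vehicle. Of the 889, 48 were called lower with ALD than with COR (5.4%), none was called higher, the median difference was -0.25 and 72.4% were lower with ALD in both experiments. Of the 106 that CVZ raised at least 4-fold, 35 were called lower (33%), the median was -0.74, and 97 (91.5%) were lower in both. Of the 594 fallen, 6 were called higher with ALD (1.01%), with a median of 0.22 and 67.5% higher in both. The other 17142 probe sets gave 1 call, a median of 0.01 and 22.2% lower in both. Across probe sets, the first and the second experiment's differences correlated at r = 0.64 over the 1483 CVZ-called probe sets, at -0.03 over the other 17142 and at 0.05 over all. Choosing probe sets by CVZ calls favours small errors, so the correlations, shares and counts of calls in this paragraph are partly set by the choice. Probe sets on shared arrays are not independent either, so these are descriptions. Every one of the 6 probe sets higher with ALD was called fallen with CVZ, and 48 of the 49 lower ones were called risen with it, Kcmf1 being the exception.

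**Figure D4:**
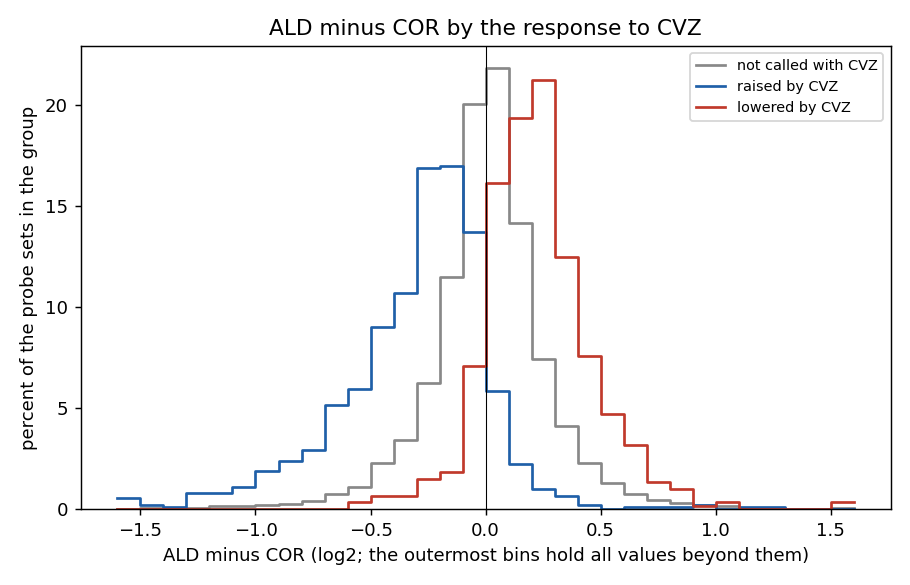
ALD minus COR (log2, x axis) as the percent of probe sets in each bin (y axis), for probe sets raised by CVZ (blue, 889), lowered by CVZ (red, 594) and not called with CVZ (grey, 17142). The blue curve lies to the left of 0 with a median of -0.25, the red to the right with a median of 0.22, and the grey curve is centred at 0.01.

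Other pathways showed no call between the steroids. With 0.407% of all named genes called, no call in lists of 12 to 17 genes is no result about these pathways. None was called among 16 tested genes of the circadian clock, 12 of purine turnover, 17 of cytokines and inflammation, 15 of MAPK and G protein feedback, 14 fetal and hypertrophy genes, 16 of calcium handling and ion channels, 14 of the extracellular matrix and 17 of oxidative stress. Their medians lay between -0.13 and 0.07. Abundant heart genes gave differences near 0. Ankrd1, a stretch-responsive nuclear protein, gave -0.02 (-0.16 to 0.12), Nppa, atrial natriuretic peptide, 0.06 (-0.10 to 0.21), and Myh7, slow myosin heavy chain, -0.09 (-0.28 to 0.10). Atp2a2, the calcium pump of the sarcoplasmic reticulum, was at 350 and 308 with ALD and 349 and 324 with COR (-0.03, -0.16 to 0.09), and its inhibitor Pln gave -0.01 (-0.14 to 0.12). Ccl2, a monocyte chemokine that CVZ lowered from 45.2 and 16.3 to 6.64 and 2.36, was at 43.1 and 10.3 with ALD and 41.2 and 7.12 with COR. Neither natural steroid was called to lower it, and they differed by 0.30 (-0.11 to 0.71).

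For most genes the 4 arrays bounded the difference without placing it. The 95% interval of ALD minus COR lay inside 2-fold in both directions for 15017 of the 18625 probe sets (80.6%), and within 0.5 on the log2 scale for 7371 (39.6%). Its median width on either side was 0.42. A gene not called may therefore still differ by up to the bounds of its interval.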

How the data were processed

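RNA from rat cardiomyocyte cultures was hybridised to 12 Affymetrix arrays, 1 for each of 8 groups in up to 2 experiments. Per the submitters' processing notes the authors computed MAS5 signals. The deposited signals are linear intensity values, and a test of the file gave each array a median of 1. Array number limits the precision. Of 31099 probe sets 57 controls were removed. Values were put on the log2 scale from the deposited signals after adding 0.0696 (their 10th percentile), and fold changes are on this scale. Probe sets were tested where their mean log2 value exceeded the 40th percentile (18625). Names came from the platform annotation with symbols updated through the RefSeq gene table (20832 probe sets with 1 gene, 436 with several, 9831 with none), and a gene was represented by its tested probe set of highest mean.

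Differences were fitted in R 4.3.3 with limma 3.58.1 (lmFit, eBayes with trend), using 8 group means and the experiment as a block over 12 arrays, residual degrees of freedom 3 and 15.2 with the prior. Adjusted p is Benjamini-Hochberg over all tested probe sets, threshold 0.05, two-sided. The labels name the first and second experiment, and deviations from the group means correlated between same-numbered arrays at 0.512 to 0.567, so the block pairs them. The single ALD and COR pair was the only pair of compounds compared. The fit was tested on simulated data. Alternatives were other pseudocounts, filters and scalings, no block, no trend, fewer arrays and leaving out each replicate.

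Named genes were the 15 largest called in each direction with the same sign in both experiments, filled to 10 with genes not called. Called and up to 3 abundant members of each list were added, with 9 receptor and target genes in every case and up to 5 genes risen or fallen with ALD beyond COR in both experiments. Others named are list members or near the threshold. The members, rules and lists were chosen with earlier results of these data known. Other deposited columns outside the 12 arrays numbered 0.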

Additional observations from a re-analysis of the deposited data

How the results depend on the processing

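Alternatives were run for the counts of calls, the 2-fold counts, the CVZ-list medians and the 25 named calls, and no named call or list median among them changed sign. Genes not called and the pathway list medians were not rerun. At an unadjusted p below 0.05 more probe sets were higher than lower with ALD without the first ALD array (600 and 421) and without the first COR array (454 and 413). The 55 calls (49 lower, 6 higher with ALD) became 21 (21 and 0) with no filter and 0 (0 and 0) both without the replicate block and without the trend. They were 75 lower with the 4 arrays alone. Calls ranged from 2 to 71 when a replicate was left out (lower 2 to 63, higher 0 to 8), Egr1 and Tcap being the 2 kept throughout. Both other scalings together kept 49 of the 55. Against vehicle, calls without the block were 41 for COR, 13 for ALD and 215 for CVZ, and without the trend 117, 15 and 646. With a replicate left out they ranged from 341 to 692, 117 to 186 and 994 to 1550, the lows for COR being 341 and 381 without either COR array and for ALD 117 without the second vehicle array. The median of CVZ-raised probe sets was -0.54 without the block and -0.40 without the trend, where fewer probe sets met the CVZ threshold, and that of CVZ-lowered ones 0.44 without the block and 0.14 to 0.26 with a replicate left out. The 2-fold counts of 28 lower and 14 higher became 14 and 3 with the pseudocount at the 25th percentile, 350 and 343 with no filter, and 12 and 0 with the filter at the 60th percentile. All 25 named calls were lost without the block and without the trend.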

Other observations

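Another 16 genes lower with ALD fell outside the naming rule and are described after their values were seen. They included 2 genes of the endoplasmic reticulum. Herpud1, which serves protein degradation there, was at 26.4 and 17.4 with vehicle, 47.5 and 39.5 with ALD and 77.3 and 57.0 with COR (-0.61, adjusted p = 0.011). Stt3b, a catalytic subunit of the oligosaccharyltransferase, was at 39.7 and 33.6 with ALD and 54.4 and 46.3 with COR (-0.46, adjusted p = 0.031), while a second probe set gave -0.10 and was not called. Srebf1, the lipogenic factor SREBP-1, was at 11.8 and 14.1 with ALD and 20.7 and 20.0 with COR (-0.65, adjusted p = 0.037). Second probe sets of Srebf1 and Tent5b gave -0.40 and -0.92 and were not called. Sgms1, a sphingomyelin synthase, was at 12.3 and 9.83 with ALD and 18.3 and 16.1 with COR (-0.64, adjusted p = 0.028). Tent5b, a poly(A) polymerase, was at 0.330 and 0.366 with vehicle, below the filter level of 0.560, 3.80 and 5.34 with ALD and 8.05 and 9.43 with COR (-0.94, adjusted p = 0.044). Lama5, a laminin chain of basement membranes, was at 6.4 and 7.95 with ALD and 11.3 and 13.3 with COR (-0.78, adjusted p = 0.037). In none of these 6 genes did the ALD and COR arrays overlap, and both ALD signals lay below both COR signals in 9.19% of all tested probe sets. As the same arrays selected the 6, this describes them and is no support for the calls.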
